A study of Mus musculus with 2 samples.

Results

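The genes described here encode the proteasome, its assembly factors and its activators in mouse muscle stem cells (MuSCs). They were found as the genes whose mouse symbol, looked up from the Ensembl ID of each table row, begins with Psma to Psmg followed by a digit, without the -ps suffix of pseudogenes. This rule gave 50 genes out of 27321 gene IDs listed in either gene table. Of these, 48 were listed in the table of the 10% library and 49 in that of the 90% library. By known role, 31 were constitutive subunits of the 20S core and the 19S cap, 3 were immunoproteasome subunits, 7 were assembly chaperones, 6 were activators or inhibitors and 2 were tissue-specific 20S subunits. The remaining gene, Psmc3ip, matched the rule by its symbol, but its protein is a partner of the meiotic recombinases and not a proteasome subunit.

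The proteasome is the protease that degrades proteins tagged with ubiquitin. Its 20S core is a barrel of alpha rings, which gate the entrance, around beta rings, of which Psmb5, Psmb6 and Psmb7 carry the catalytic sites. The 19S cap recognizes ubiquitin, removes it and unfolds the substrate with a ring of ATPases. In cells exposed to interferon the catalytic subunits can be replaced by Psmb8, Psmb9 and Psmb10, which favors peptides for presentation on MHC class I. In MuSCs the proteasome is known to be needed for survival and for regeneration of muscle.

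The mice carried Pax7creERT2 and R26-eYFPfl/fl on a C57BL6 background, so that tamoxifen (20 mg/ml, 100 uL daily) given at 3 months of age marked Pax7-expressing cells and their progeny with YFP. Every cell in the series came from such mice and was sorted on YFP. Quiescent MuSCs were taken from uninjured muscle, and activated MuSCs were taken 72 h after the lower hindlimb had been injured with 40 uL of 1.2% barium chloride. Both kinds went into 1 capture with a 10x 3′ protocol, and the capture was divided into a 10% library, read by Illumina and by nanopore, and a 90% library, read by Illumina. Both libraries therefore hold the same mixture, there is no replicate of either state, and no label gives the origin of a cell. All differences below are descriptions of this capture with intervals for counting error only, and no p-value can be given.

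Barcodes were compared in 2 classes set by their total of short-read unique molecular identifiers (UMIs), as the files give them. The shallow class held barcodes of 3000 to 15000 UMIs without a UMI of the cell-cycle genes Rrm2, Top2a and Cdk1, and the deep class held barcodes of at least 20000 UMIs. In the 10% library these were 157 shallow barcodes (1114508 UMIs in all, median 6729) and 79 deep barcodes (5099209 UMIs, median 65499) out of 1991. In the 90% library they were 1243 shallow barcodes (6452314 UMIs, median 4680) and 606 deep barcodes (29875734 UMIs, median 47106) out of 3001. The classes are ranges of depth and not cell types, and 12 and 42 barcodes fell between them. Markers of quiescence were lower in deep barcodes for 6 of the 6 that could be compared in both libraries, and 6 of 7 markers of activated or cycling cells were higher, with Myod1 as the exception. Of all genes that could be compared, 35.1% were higher and 23.3% lower. The shallow class leaves out barcodes with cell-cycle UMIs, so a higher deep level of markers of cycling cells was partly set by the rule. Of markers of other cells, those of the endothelium and of red blood cells were too low to compare, and 1 of 2 fibro-adipogenic, 1 of 1 mural and 1 of 3 myofibre markers were lower in deep barcodes, with 1 myofibre marker higher.

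The libraries shared 634 barcodes, and all barcodes of both classes of the 10% library were also in the table of the 90% library. For 232 of these 236, the expression profile in the 10% library was closest to that of the same barcode in the 90% library. The classes did not match in full: of the 157 shallow barcodes of the 10% library, 144 were shallow and 5 deep in the 90% library. Of its 79 deep barcodes, 76 were deep there and 0 shallow. The libraries are therefore not independent of each other, and ratios from the 90% library without shared barcodes (1000 shallow and 399 deep) are given beside the main sums.

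A level is given as UMIs per 1000000 UMIs of the class (CPM), and a ratio is the level in deep over that in shallow barcodes with its exact 95% interval. A gene was called when its ratio was at least 1.5 in either direction in both libraries, among genes with a mean of both class levels of at least 10 CPM in each library. Of the 50 genes, 46 passed this level filter. Of these, Psmc3ip, Psmd5, Psmd10, Psmg1 and Psmg3 were below 10 CPM in the shallow barcodes of both libraries and passed through their deep level, so that the filter favored a higher call for them. Psmb10 was below 10 CPM in the shallow barcodes of the 10% library alone. Psmb9 and Psmf1 were too low, Psmb11, the thymus-specific beta subunit, had 1 UMI in each class of the 90% library, and the testis-specific Psma8 was in neither table.

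Proteasome genes were higher in deep than in shallow barcodes. Of the 46 genes compared, 35 (76.1%) were called higher, against 35.1% of the 5999 genes that passed the same filter, and 0 were called lower, against 23.3%. Without the genes below 10 CPM in shallow barcodes of both libraries, 30 of 41 members (73.2%) were called higher, against 29.0% of 5449 genes. The members' median log2 ratio was 1.28 in the 10% library and 1.36 in the 90% library, whereas the median of all genes was 0.18 and 0.20. In each library 42 of 46 members lay above the median of all genes. In the 10% library alone 36 of 46 members were higher, against 38.3% of all genes, and 1 was lower, against 27%. In the 90% library alone 38 were higher, against 38.9%, and 0 lower, against 26.5%. With the median of all genes set to 0, 34 members were called higher and 2, Psma3 and Psmd11, lower.

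The 31 constitutive subunits of 20S and 19S summed to 2258 CPM in shallow and 4953 in deep barcodes of the 10% library, a ratio of 2.19 (2.11 to 2.29). In the 90% library the sum went from 2380 to 5668, a ratio of 2.38 (2.34 to 2.42), and the ratio was 2.37 (2.32 to 2.41) without shared barcodes. Per barcode this was a mean of 16.0 against 320 UMIs and of 12.4 against 279 UMIs. The median level over single barcodes was 2037 in shallow and 4516 in deep barcodes of the 10% library, and 2133 and 5268 in the 90% library. None of the 79 and 606 deep barcodes lay below the median of the shallow barcodes, while 6 of 157 and 26 of 1243 shallow barcodes lay above the deep median.

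**Figure D1:**
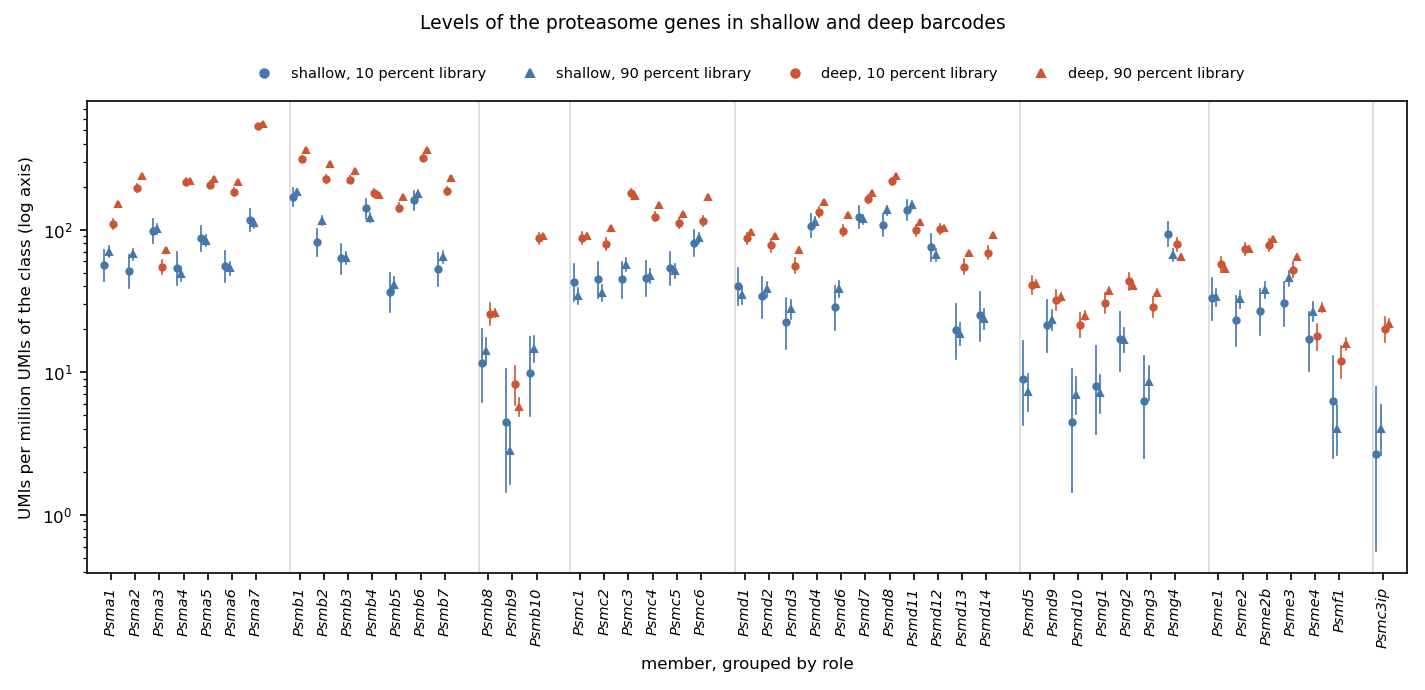
Level of each member listed in both libraries (CPM, log axis), grouped by role, with shallow barcodes in blue, deep barcodes in red, circles for the 10% library and triangles for the 90% library; bars are exact 95% Poisson intervals. Psma7 goes from 117 and 111 to 533 and 553, while Psma3 and Psmd11 are the constitutive subunits whose deep level lies below the shallow one in both libraries.

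The summed level was also taken in steps of depth. In shallow barcodes of 3000 to below 5000, 5000 to below 8000 and 8000 to 15000 UMIs the summed level was 2341, 2090 and 2412 in the 10% library and 2152, 2283 and 3280 in the 90% library. In deep barcodes of 20000 to below 40000, 40000 to below 60000 and at least 60000 UMIs it was 5433, 4771 and 4922, and 5727, 5616 and 5723. Every deep step was above every shallow step of its library. Within the shallow class of the 90% library the level was higher in the step of 8000 to 15000 UMIs than in the others, and barcodes of 1000 to below 3000 UMIs, outside the class, were at 2900 and 2273.

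Barcodes in the shallow range of UMIs that did hold a UMI of a cell-cycle gene were at 3355 (21 barcodes) and 3464 (148 barcodes) CPM, above the shallow class of the same range. Deep barcodes without such a UMI were at 3759 (9 barcodes) and 5514 (35 barcodes), and those with one at 5023 and 5674. In the 10% library the level was thus lower in the few deep barcodes without cell-cycle UMIs, and in the 90% library it was close to that of the others. With these deep barcodes alone as the deep class, 22 of 42 members were called higher, against 26.2% of all genes, and 14 of the 35 calls were lost, among them those of Psma1 (mean ratio over both libraries 1.08 instead of 2.06), Psmc4 (1.73 instead of 2.90) and Psmc3ip (1.91 instead of 6.36). For this deep class, here and below, such a mean gives the 9 barcodes of the 10% library the same weight as the 35 of the 90% library. The 1235 and 387 barcodes of at least 10 and below 500 UMIs, too few to be counted as cells here, were at 4383 and 3102 CPM, and the part of free RNA in the class levels was not tested. Splitting the shallow class by Myod1 gave 2446 without and 2092 with a Myod1 UMI in the 10% library and 2376 and 2385 in the 90% library.

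**Figure D2:**
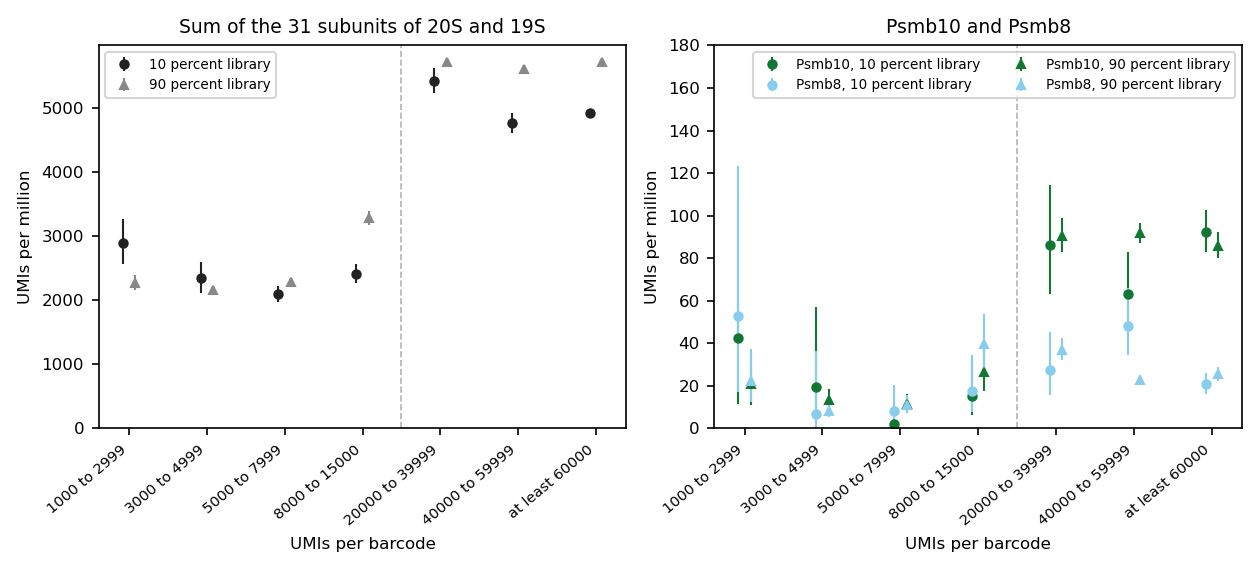
Left, summed level of the 31 constitutive 20S and 19S subunits, and right, levels of Psmb10 and Psmb8, in CPM against the UMIs per barcode in bins, with circles for the 10% library, triangles for the 90% library and exact 95% Poisson intervals. Left of the dashed line are barcodes without cell-cycle UMIs; the summed level lies between 2090 and 3280 there and between 4771 and 5727 to the right of it.

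The alpha rings, which form the outer gate of the core, had the largest difference among the constitutive groups. Their summed level went from 519 to 1502 CPM in the 10% library (ratio 2.90, 2.66 to 3.16) and from 535 to 1677 in the 90% library (3.14, 3.03 to 3.25), and 6 of 7 were called higher. Psma7 (alpha4) was at 117 and 111 CPM in the shallow barcodes of the 10% and 90% libraries and at 533 and 553 in the deep ones, ratios of 4.57 (3.83 to 5.49) and 5.0 (4.6 to 5.4). Psma4 (alpha3) was at 53.8 and 48.7 against 217 and 219, ratios of 4.04 and 4.49. Psma1 (alpha6), the lowest of those called, was at 56.5 and 70.2 against 110 and 152, ratios of 1.9 and 2.2. Psma2, Psma5 and Psma6 had ratios of 2.38 to 4.01.

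Psma3 (alpha7) went the other way. It was at 97.8 and 101 CPM in shallow barcodes and at 54.7 and 71.7 in deep ones, ratios of 0.56 (0.45 to 0.71) and 0.71 (0.65 to 0.78), so that it was called lower in the 10% library alone. The end of Psma3 (chr12:70974621-70996347 of GRCm38, plus strand) overlaps the antisense gene 3110056K07Rik, and whether this affects the short-read count was not tested. In the long reads of the same 10% library, Psma3 was at 446 CPM in shallow barcodes (617 UMIs) and at 431 in deep ones (1994 UMIs), a ratio of 0.97 (0.88 to 1.06). The lower level of Psma3 in deep barcodes was thus not seen in the long reads.

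The beta rings, which hold the catalytic sites, went from 704 to 1595 and from 767 to 1844 CPM, ratios of 2.26 (2.10 to 2.44) and 2.41 (2.34 to 2.48), with 6 of 7 called higher. Psmb5 (beta5), which cleaves after hydrophobic residues, had the highest ratios of these, with 36.8 and 41.2 CPM in shallow barcodes against 142 and 169 in deep ones (3.86, 2.82 to 5.43, and 4.10, 3.62 to 4.65). Psmb3 (beta3) followed at 62.8 and 63.5 against 224 and 259 (3.57 and 4.08). The other catalytic subunits, Psmb7 (beta2, trypsin-like) and Psmb6 (beta1, caspase-like), also were called higher. Psmb7 was at 52.9 and 64.8 against 187 and 229 (3.54 and 3.53), and Psmb6 was at 161 and 178 against 318 and 364 (1.98 and 2.05). The ratios of Psmb6 lay below the intervals of those of Psmb5 and Psmb7 in both libraries. Psmb1 (beta6) was at 169 and 182 against 315 and 361 (1.87 and 1.98), and Psmb4 (beta7) was not called, at 141 and 121 against 182 and 175 (1.29 and 1.45).

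As a sum, the 19S cap differed less than the core. Its 17 constitutive subunits went from 1035 to 1856 and from 1079 to 2146 CPM, ratios of 1.79 (1.69 to 1.91) and 1.99 (1.94 to 2.04), whereas the 14 subunits of the core gave 2.53 (2.40 to 2.68) and 2.71 (2.65 to 2.77). The intervals of cap and core did not overlap in either library. The ATPase ring was nearer to the core, with ratios of 2.23 and 2.59 and 5 of 6 members called higher, than the non-ATPase subunits with 1.60 and 1.74 and 7 of 11 called higher. Beside the beta rings of the core (2.26 and 2.41), the ATPase ring was close in the 10% library and higher in the 90% library.

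Among the ATPases, Psmc3 (Rpt5) was at 44.9 and 56.7 CPM in shallow and 181 and 172 in deep barcodes, ratios of 4.03 (3.03 to 5.46) and 3.03 (2.72 to 3.38). The end of Psmc3 overlaps Slc39a13 on the other strand. Psmc4 (Rpt3) was at 45.8 and 47.6 against 124 and 148 (2.70 and 3.10). Psmc2 (Rpt1) was at 44.9 and 36.0 against 79.8 and 103 (1.78 and 2.86). Psmc6 (Rpt4) was not called, at 80.8 and 87.1 against 116 and 169 (1.43 and 1.94), and Psmc1 and Psmc5 had ratios of 2.03 to 2.65.

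Of the non-ATPase subunits, Psmd6 (Rpn7) was at 28.7 and 38.6 CPM against 98.3 and 127 (3.42, 2.39 to 5.06, and 3.29, 2.89 to 3.75). Psmd14 (Rpn11), the enzyme that takes ubiquitin chains off the substrate, was at 25.1 and 23.7 against 68.8 and 91.2 (2.74 and 3.85). The ratios of both were above those of the catalytic subunit Psmb6. With deep barcodes without a cell-cycle UMI the mean ratio of Psmd14 over both libraries was 1.33 instead of 3.25, and its call was lost. Psmd4 (Rpn10), a ubiquitin receptor, was at 107 and 114 against 133 and 155 (1.2 and 1.4) and was not called. Psmd7 (1.34 and 1.54) and Psmd12 (1.34 and 1.55) passed the threshold in the 90% library alone. Psmd1, Psmd2, Psmd3, Psmd8 and Psmd13 were called higher with ratios of 1.73 to 3.68.

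Psmd11 (Rpn6), a scaffold subunit of the lid, was the other exception. It was at 137 and 150 CPM in shallow and 98.6 and 113 in deep barcodes, ratios of 0.72 (0.60 to 0.87) and 0.76 (0.71 to 0.82). Both intervals lay below 1, though the ratios did not reach the threshold of 1.5-fold. In long reads the ratio was 0.66 (0.60 to 0.74), from 518 UMIs in shallow and 1149 in deep barcodes, so that Psmd11, unlike Psma3, was lower by both kinds of reads.

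**Figure D3:**
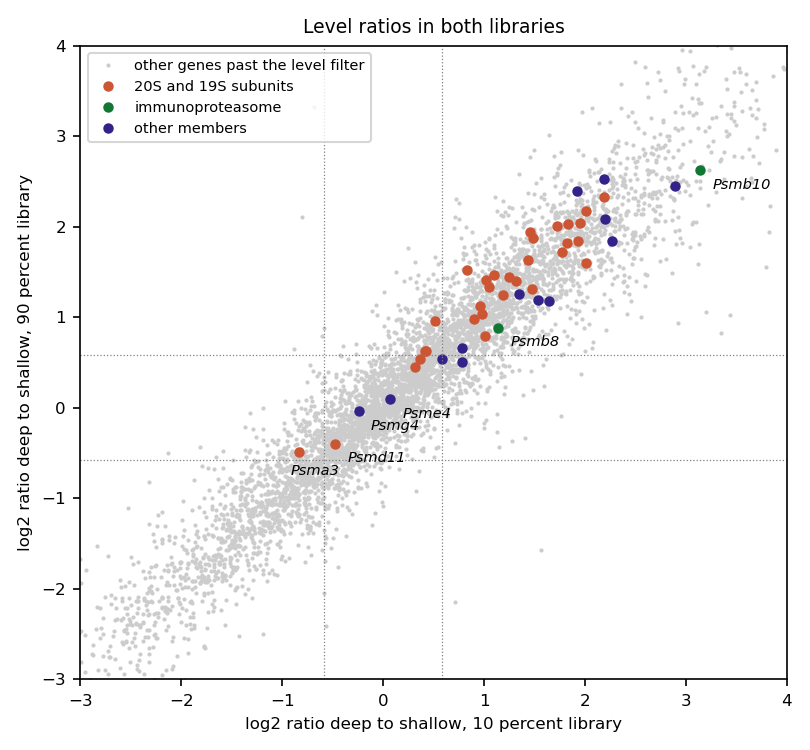
Log2 ratio of deep over shallow levels in the 10% library (horizontal) and in the 90% library (vertical) for the genes past the level filter, with grey points for the other genes, colored points for the 46 members and dotted lines at 1.5-fold; 378 of the 5999 genes lie outside the axes. Most members are in the upper right, Psmb10 is farthest out, and Psma3 and Psmd11 are below 0 on both axes.

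The assembly chaperones, which put core and cap together and leave, were called higher in 5 of 7 cases, of which Psmd5, Psmd10, Psmg1 and Psmg3 passed the level filter through their deep level. Of all 550 genes that passed in this way, 525 (95.5%) were called higher, so such a call was nearly set by the filter. Among the other chaperones Psmg2 was called higher and Psmd9 and Psmg4 were not, beside 29.0% called higher of the other genes. Psmd5, a chaperone of the cap, was at 8.97 and 7.28 CPM against 41.0 and 41.8 (4.57, 2.43 to 9.67, and 5.74, 4.29 to 7.86). Psmg1, which builds the alpha ring together with Psmg2, was at 8.08 and 7.13 against 30.6 and 37.4 (3.79 and 5.24). These are low counts in shallow barcodes, with 10 and 9 UMIs in the 10% library. Psmg2, Psmg3 and Psmd10 (gankyrin) had ratios of 2.39 to 4.81. Psmg4, which works together with Psmg3, was not called, at 93.3 and 66.5 against 78.8 and 64.6 (0.84 and 0.97), and both intervals held 1. Psmd9 was at 21.5 and 23.2 against 32.2 and 33.7 (1.49 and 1.45).

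Activators and the inhibitor were mixed. The genes of the interferon-inducible activator PA28 were called higher, Psme1 with 33.2 and 33.6 against 57.1 and 52.9 CPM (1.72 and 1.57) and Psme2 with 23.3 and 32.4 against 73.1 and 73.5 (3.14 and 2.27). Psme2b, a copy of Psme2 on another chromosome, was at 26.9 and 37.8 against 78.2 and 86.1 (2.91 and 2.28). Psme2b held 53.6% and 53.9% of the UMIs of both copies in shallow barcodes and 51.7% and 53.9% in deep ones, yet it had 0 long-read UMIs in either class against 89 and 552 of Psme2, so the short-read counts of these copies are uncertain. Psme3, the nuclear activator PA28 gamma, was at 30.5 and 45.6 against 52.4 and 64.6 (1.72 and 1.42). Psme4 (PA200) was at 17.0 and 26.7 against 17.8 and 28.5 (1.05, 0.63 to 1.82, and 1.07, 0.91 to 1.26). Psmf1, the inhibitor PI31, was at 6.28 and 4.03 against 12 and 16 and did not pass the filter. Psmc3ip, which is not a subunit, was at 2.69 and 4.03 against 20.0 and 21.9 (7.43, 2.47 to 36.6, and 5.44, 3.68 to 8.39).

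The 3 immunoproteasome subunits replace catalytic beta subunits and were kept apart. To show the stretch before each start site, the 250 bases upstream of the RefSeq start are given 5′ to 3′ on the gene's strand (GRCm38.p6) for these genes and for Psmb5, with capitals for matches to the 4 motifs searched. The windows of Psmb8 and Psmb9 lie inside the genes as Gencode vM21 bounds them (34197721 to 34201454 and 34181987 to 34187764), so for these the RefSeq start is not the outermost one.
Psmb8, chr17:34197945-34198194, plus strand: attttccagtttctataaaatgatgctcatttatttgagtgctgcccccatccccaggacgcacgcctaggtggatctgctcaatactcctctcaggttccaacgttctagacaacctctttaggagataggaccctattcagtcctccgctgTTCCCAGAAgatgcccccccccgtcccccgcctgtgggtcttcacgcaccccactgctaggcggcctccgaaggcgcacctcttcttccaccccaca
Psmb9, chr17:34187331-34187580, minus strand: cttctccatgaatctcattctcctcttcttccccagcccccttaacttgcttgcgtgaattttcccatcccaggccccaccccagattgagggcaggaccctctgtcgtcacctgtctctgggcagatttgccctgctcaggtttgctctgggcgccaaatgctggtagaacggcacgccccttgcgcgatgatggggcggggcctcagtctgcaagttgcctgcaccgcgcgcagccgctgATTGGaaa
Psmb10, chr8:105938393-105938642, minus strand: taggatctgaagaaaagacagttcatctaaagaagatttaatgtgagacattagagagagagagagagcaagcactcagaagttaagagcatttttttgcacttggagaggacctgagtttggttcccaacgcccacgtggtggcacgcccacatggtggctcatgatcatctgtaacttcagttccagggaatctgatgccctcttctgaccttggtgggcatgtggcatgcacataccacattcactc
Psmb5, chr14:54617996-54618245, minus strand: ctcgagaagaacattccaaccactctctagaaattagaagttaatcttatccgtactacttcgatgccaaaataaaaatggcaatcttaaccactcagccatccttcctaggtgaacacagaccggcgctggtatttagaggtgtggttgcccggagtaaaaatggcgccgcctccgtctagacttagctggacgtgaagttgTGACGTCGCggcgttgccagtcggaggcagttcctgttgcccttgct

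The motifs were searched as plain letters on both strands of the same 250 bases, of which RefSeq gave a window for 42 of the 50 members and for 27025 genes in all. The gamma-activated site TTCNNNGAA, which reads the same on both strands, was in 2 of 42 members (Psmb8 and Psmg1), 4.76% against 7.18% of all windows. The interferon-stimulated response element was in 3 (Psmb3, Psmd4 and Psmd9), 7.14% against 3.04%. The antioxidant response element TGACNNNGC, the letters bound by Nrf1 and Nrf2, was in 5 (Psmb5, Psmb6, Psmc6, Psmd9 and Psmd12), 11.9% against 10.1%. The CCAAT box was in 15, 35.7% against 34.5%, and in Psmb9 it lies on the other strand. Psmb10 held none of the 4 in this window. A match is a description of letters and not evidence of binding.

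Psmb10 (beta2i) had the highest ratio of the 46 members compared in each library. It was at 9.87 and 14.6 CPM in shallow barcodes (11 and 94 UMIs) and at 86.9 and 89.8 in deep ones (443 and 2682 UMIs), ratios of 8.80 (4.87 to 17.8) and 6.16 (5.02 to 7.65). Without shared barcodes the 90% library gave 6.27 (4.95 to 8.06). The antisense gene Gm16156 overlaps the end of Psmb10. In long reads Psmb10 had 9 UMIs in shallow and 427 in deep barcodes, a ratio of 14.2 (7.40 to 31.2).

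Psmb8 (beta5i) was at 11.7 and 14.1 CPM in shallow barcodes (13 and 91 UMIs) and at 25.7 and 26.0 in deep ones (131 and 777 UMIs), ratios of 2.20 (1.24 to 4.25) and 1.84 (1.48 to 2.32). The antisense gene Gm20496 overlaps its end. In long reads the ratio of Psmb8 was 1.36 (0.914 to 2.10), an interval that holds 1, and the call of Psmb8 was also lost with shallow barcodes of 5000 to 15000 UMIs and with cell-cycle barcodes kept in the shallow class. Psmb9 (beta1i) was at 4.49 and 2.79 against 8.24 and 5.72 (1.84, 0.73 to 5.95, and 2.05, 1.26 to 3.54), from 5 and 18 UMIs in shallow barcodes, and was below the level filter. All 3 summed to 26.0 and 31.5 in shallow and 121 and 122 in deep barcodes, ratios of 4.64 (3.20 to 6.99) and 3.86 (3.35 to 4.47), and Psmb10 gave most of this sum in deep barcodes.

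A few shallow barcodes with immune markers held much of the Psmb8. The summed level of the 8 immune markers was 347 in shallow and 84.3 in deep barcodes of the 10% library and 268 and 5.56 in the 90% library, and Ptprc and Coro1a were at 0 in shallow barcodes of the 10% library. One shallow barcode of the 10% library and 8 of the 90% library had UMIs of at least 2 of these markers, and they held 8 of 13 and 34 of 91 Psmb8 UMIs. Without them and the deep barcodes of the same kind (4 and 11), Psmb8 was at 4.54 and 8.94 against 25.6 and 25.9, a mean ratio over both libraries of 4.04 instead of 2.02. For Psmb10 the mean ratio was 9.26 instead of 7.36, and for the 31 constitutive subunits it was 2.31 instead of 2.29.

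Of the shares within each catalytic pair, only that of Psmb10 had separate intervals in the classes of both libraries. Of the UMIs of Psmb10 and Psmb7 together, Psmb10 held 15.7% (8.11 to 26.4) and 18.4% (15.1 to 22.0) in shallow barcodes and 31.7% (29.3 to 34.2) and 28.2% (27.3 to 29.1) in deep ones. Of Psmb8 and Psmb5, Psmb8 held 24.1% (13.5 to 37.6) and 25.5% (21.0 to 30.3) against 15.3% and 13.3%. Without barcodes with immune markers these were 11.6% (3.89 to 25.1) and 18.3% (14.1 to 23.0) against 15.3% and 13.3%, so that the order held in the 90% library alone. There the interval in deep barcodes was 12.4 to 14.2, which just overlaps that in shallow ones. Psmb9 held 2.72% and 1.54% of the UMIs of Psmb9 and Psmb6 in shallow and 2.53% and 1.55% in deep barcodes. Such shares compare 3′ counts of different genes and are read only as differences between the classes.

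Within deep barcodes Psmb8 and Psmb9 followed the interferon-stimulated genes. Deep barcodes were ordered by the summed level of 15 such genes, a list that holds none of the members, and were cut at the median and at the 90th percentile. The list itself summed to 186 and 187 CPM in shallow and 389 and 372 in deep barcodes. Of its 6 genes past the filter 2 were called higher, Bst2 and Rtp4, against 35.1% of all genes. Psmb8 was at 5.64, 40.7 and 107 CPM in these 3 steps of the 10% library (40, 31 and 8 barcodes) and at 7.16, 34.1 and 97.3 in the 90% library (303, 242 and 61 barcodes). Psmb9 was at 1.41, 12.5 and 40.6, and at 1.64, 6.51 and 25.5. Psmb10 varied far less, at 75.4, 99.1 and 113, and at 86.0, 85.4 and 131, and the constitutive sum was at 4932, 4996 and 4890, and at 5421, 5798 and 6491. Psmb10 was thus present at 75.4 and 86.0 in the deep barcodes with the least interferon-stimulated gene UMIs, where Psmb8 was at 5.64 and 7.16. In all shallow barcodes, not cut by these genes, Psmb8 was at 11.7 and 14.1. Without the barcodes with immune markers its shallow level was 4.54 (1.47 to 10.6) and 8.94 (6.77 to 11.6), so no order between these deep barcodes and the shallow class is read from it.

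**Figure D4:**
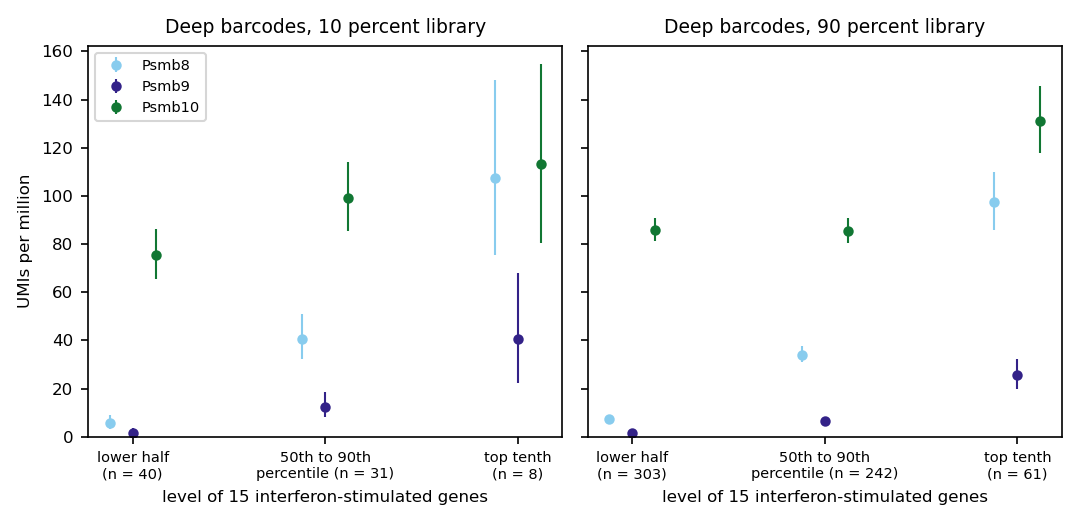
Levels of Psmb8, Psmb9 and Psmb10 (CPM, exact 95% Poisson intervals) in deep barcodes of each library, cut by the summed level of 15 interferon-stimulated genes at the median and the 90th percentile. Psmb8 goes from 5.64 to 107 and from 7.16 to 97.3, whereas Psmb10 stays between 75.4 and 131.

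Genes of proteins that work with the proteasome were looked at from lists. Of 12 partners that could be compared in both libraries, 5 were called higher and 1 lower. Of all genes past the filter, 35.1% were called higher and 23.3% lower. Pomp, the maturation factor of the core, was at 90.6 and 89.7 CPM against 205 and 207 (2.26 and 2.31). Uchl5, a deubiquitinase of the cap, was at 7.18 and 20.3 against 53.7 and 71.0 (7.5 and 3.5), and Usp14, a deubiquitinase that also binds the cap, was at 17.0 and 25.1 against 41.4 and 69.3 (2.43 and 2.76). Zfand5, a zinc finger protein that stimulates the proteasome, was lower, at 558 and 674 against 151 and 150 (0.27 and 0.22). Ubqln2, a shuttle for ubiquitinated proteins, had ratios of 0.60 and 1.38, on opposite sides of 1. The count of partners called higher was thus near the share over all genes, and Zfand5 was called lower.

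The Nrf1 axis, which raises transcription of subunits when proteasome activity is short, had 0 of 6 genes higher and 4 lower. Of all genes, 35.1% were higher and 23.3% lower. Nfe2l1, which encodes Nrf1, was at 25.1 and 26.7 CPM against 15.7 and 19.6 (0.62 and 0.74) and was not called in both libraries. Its small Maf partner Maff was at 371 and 419 against 16.1 and 17.1, and Mafk was at 91.5 and 104 against 6.67 and 7.67. Vcp, the ATPase that extracts Nrf1 from the membrane, was at 64.6 and 77.3 against 97.5 and 110 (1.51 and 1.42). Nfe2l2 (Nrf2) was at 96.0 and 83.5 against 41.2 and 36.9. Of MHC class I genes 0 of 7 were higher and 2 lower, beside the same shares of all genes. The 2 were H2-K1 (109 and 130 against 36.3 and 34.4) and H2-D1 (238 and 291 against 130 and 131). Among the genes past the level filter, the highest ratios on that list were those of Calr (1.71 and 1.34) and Tap2 (1.21 and 1.69), neither past the threshold in both libraries. Tap1, below the filter with 3 and 20 UMIs in shallow barcodes, had ratios of 2.77 (0.88 to 14) and 2.39 (1.51 to 3.98).

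Long reads of the 10% library give the isoform of each molecule. Of the 48 members in the isoform table, 38 had at least 50 long-read UMIs in each class, and the members had 7257 UMIs in shallow and 44547 in deep barcodes. Between 3 and 32 isoforms were listed for each of the 38, with a median of 9.5. In 5 of 38 (13.2%) the share of an isoform differed by at least 20 percentage points, against 17.3% of 3265 genes, and the median of the largest difference per gene was 9.68 points for members and 10.6 for all genes. The set of all genes was not limited by the number of isoforms, and a gene with only a single isoform listed cannot differ. By size, the isoform differences of proteasome genes were near this background, which is not matched for the number of isoforms.

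The 5 genes were Psma1, Psma3, Psmd1, Psmd13 and Psmg2. In Psma3 an isoform that spans chr12:70974689-70994921 and is not in the reference held 42.6% of UMIs in shallow and 76.1% in deep barcodes, a difference of 33.5 points (29.1 to 37.7). In Psma1 the coding isoform Psma1-201 held 62.3% (91 of 146 UMIs) against 85.6% (821 of 959), a difference of 23.3 points (15.5 to 31.6). In Psmg2 the coding isoform Psmg2-201 held 55.4% against 82.4%, from 56 and 289 UMIs. In Psmd13 the leading isoform (chr7:140882414-140898643) held 61.0% against 83.3%. In Psmd1, whose end overlaps Gm21972 on the same strand, an isoform that ends early, at chr1:86064641-86078144, held 28.0% against 4.97%. In each of these genes except Psmd1 the largest change was thus a higher share of the leading isoform in deep barcodes. In Psmd1 the largest change was a lower share of a short one, while the share of its leading isoform (chr1:86064387-86132749) was 10.2 points higher.

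The leading isoform of a gene was the one with the highest mean of its shares in the shallow and deep classes. It held a share at least 5 points higher in deep barcodes in 26 of 38 members (68.4%), against 42.6% of all genes, and at least 5 points lower in 1, Psme3, against 19.3%. The shares of all genes again include any gene with only a single isoform listed, so they are not matched to the members. This measure and the next were chosen after the data had been seen. Examples beyond the 5 genes are Psmd4, where the leading isoform held 49.7% against 69.5%, Psmd6-201 with 78.1% against 95.6%, Psmc4-201 with 73.9% against 91.4%, Psmc5-201 with 78.2% against 93.2% and Psmc3-202 with 58.3% against 71.4%. Psme3-201 held 74.4% against 66.4%, with an interval of the difference from -17.3 to 2.94 points. Of the members' UMIs, 45.3% were in reference isoforms of the protein-coding type in shallow barcodes and 53.8% in deep ones, against 37.3% and 43.7% for all genes. Isoforms of the retained-intron type held 2.05% against 0.444%, and for all genes 0.890% against 0.523%.

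Sequences show where the isoforms that lost share in deep barcodes part from the coding ones. For each of 3 genes the transcript sequence (Gencode vM21) is given for 40 bases on each side of the point where a coding isoform and the other isoform part, in lower case up to the last shared base and in capitals after it.
Psma1-201, coding: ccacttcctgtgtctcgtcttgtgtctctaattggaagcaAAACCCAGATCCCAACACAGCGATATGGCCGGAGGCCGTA
Psma1-204, retained intron: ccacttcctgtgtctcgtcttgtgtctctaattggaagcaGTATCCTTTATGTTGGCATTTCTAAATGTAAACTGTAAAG
Psma3-202, coding: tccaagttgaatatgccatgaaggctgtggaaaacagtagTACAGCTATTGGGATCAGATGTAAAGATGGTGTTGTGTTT
Psma3-205, retained intron: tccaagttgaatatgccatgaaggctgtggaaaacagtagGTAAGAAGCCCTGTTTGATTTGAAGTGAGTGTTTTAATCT
Psmc5-201, coding: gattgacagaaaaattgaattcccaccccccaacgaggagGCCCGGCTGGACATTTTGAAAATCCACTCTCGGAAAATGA
Psmc5-202, nonsense-mediated decay: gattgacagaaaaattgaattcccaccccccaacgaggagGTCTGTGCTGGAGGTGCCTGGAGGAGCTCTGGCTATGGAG

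All 3 of the other isoforms run on into the intron, where the capitals begin with GT, the first bases of an intron. The isoforms of Psma1 part after position 114271054 of chromosome 7 (minus strand), those of Psma3 after 70978815 of chromosome 12 and those of Psmc5 after 106262502 of chromosome 11. Psma1-204 held 17.1% of Psma1 UMIs (25 of 146) in shallow and 3.44% (33 of 959) in deep barcodes. Psma3-205 held 12.6% (78 of 617) against 2.16% (43 of 1994). Psmc5-202, which is annotated as a target of nonsense-mediated decay, held 10.4% (20 of 193) against 2.48% (28 of 1129). All of these differences had intervals below 0.

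Psma1-204 and Psma3-205 end before the last exon of their genes, and this held for other isoforms too. A molecule was counted as ending early when the 3′ end of its isoform lies more than 100 bases upstream of every terminal exon of the basic protein-coding reference transcripts. Such molecules were 8.0% of the members' UMIs in shallow barcodes and 2.2% in deep ones, and 6.7% and 2.7% for all genes. A few genes held many of the members' early-ending UMIs: Psmd1 had 104 in shallow and 464 in deep barcodes, Psmd11 had 124 and 79, and Psma3 had 118 and 54. The pooled share thus also depends on the mix of genes in each class. The share was at least 5 points lower in deep barcodes in 11 of 38 members (28.9%), against 28.7% of 3196 genes, and at least 5 points higher in 0, against 3.22%. The members' count lower in deep barcodes was therefore at this background, and no member stood on the other side. Here and below, the background again includes any gene with only a single isoform listed.

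In Psmd13 the share ending early was 22.8% (15.7 to 31.2) in shallow and 2.51% (1.56 to 3.81) in deep barcodes. In Psmd11 it was 23.9% (20.3 to 27.9) against 6.88% (5.48 to 8.50), and in Psma3 it was 19.1% (16.1 to 22.5) against 2.71% (2.04 to 3.52). Psmg2 went from 30.4% to 5.19%, Psma1 from 19.2% to 3.96%, Psmd9 from 23.1% to 7.62%, Psmd14 from 12.7% to 1.96% and Psmd1 from 78.8% to 62.4%. Over the 38 genes the share was lower in deep barcodes in 24 (63.2%, against 45.4% of 3196 genes), with intervals of the difference below 0 in 16 (42.1%, against 30.6%), and higher in 1, Psme3 (1.16% against 1.61%), while 13 had no such UMI.

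**Figure D5:**
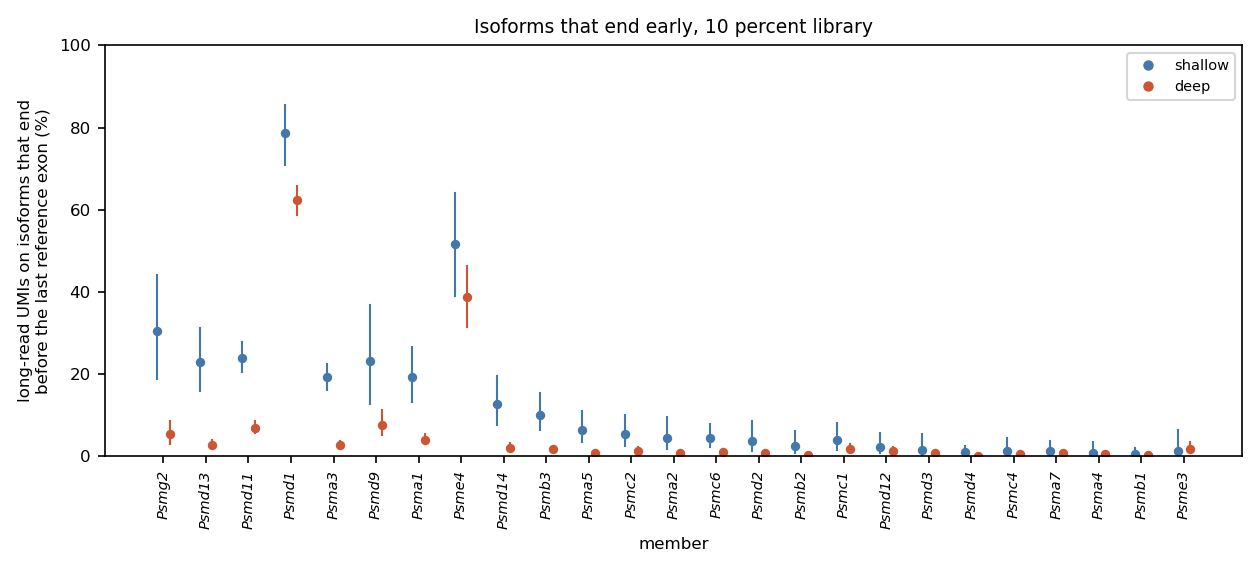
Share of long-read UMIs (percent) from isoforms that end more than 100 bases upstream of the terminal exons, for the 25 members with any such UMI and at least 50 UMIs in each class, in shallow (blue) and deep (red) barcodes of the 10% library, with exact 95% intervals, ordered by the difference. The share is lower in deep barcodes in 24 of the 25, from 22.8% to 2.51% in Psmd13.

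Within the shallow range of UMIs the share ending early differed with cell-cycle UMIs. It was 8.45%, 9.71% and 5.93% in shallow barcodes of 3000 to below 5000, 5000 to below 8000 and 8000 to 15000 UMIs, and 2.11% and 2.13% in deep barcodes of 20000 to below 40000 and of at least 40000 UMIs. In the 21 barcodes of the shallow range with a cell-cycle UMI it was 1.35% (0.776 to 2.19), and in the 9 deep barcodes without one it was 3.19% (2.54 to 3.96). Counted in the same way over all genes, with no minimum of UMIs per gene, the share was 8.95%, 8.37% and 7.31% in the shallow steps, 4.31% and 3.46% in the deep ones, 6.84% in the 21 barcodes and 5.34% in the 9. All of these are pooled over genes, and the part of the gene mix in them was not tested.

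Isoforms of the immunoproteasome subunits could not be compared, since Psmb8 had 30 and 137 long-read UMIs, Psmb9 had 4 and 56 and Psmb10 had 9 and 427. In deep barcodes 99.3% of Psmb8 UMIs were from an isoform of 6 exons, and Psmb10-201, the coding reference isoform, held 46.4% of those of Psmb10. In shallow barcodes 24 of 30 and 3 of 9 UMIs were from these isoforms.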

How the data were processed

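YFP-sorted quiescent and activated MuSCs were measured in 1 capture and 2 libraries. The authors deposited UMI counts per gene for both libraries, made with scPipe, and UMI counts per isoform of the 10% library, made with FLAMES after alignment with minimap2 (2.17) to GRCm38.p6. The counts are not normalized. Cell Ranger 1.3 is also named in the submitters' processing notes. The depth is 1114508 to 29875734 UMIs per class and library, and all intervals cover counting error only, at 95%.

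Counts were summed per class with Python 3.11.15 and pandas 2.3.3. Levels have exact Poisson intervals, ratios exact conditional binomial intervals, shares Clopper-Pearson intervals and differences of shares Newcombe intervals (scipy 1.17.1). For a count of 0 in a class the floor of 3 UMIs stands. Gene names, overlaps and reference transcripts came from Gencode vM21, whose assembly is that of the authors' annotation. Intervals around isoform shares treat UMIs as independent. The summary functions were tested on simulated data with known changes.

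The members, lists and measures were chosen with earlier results of these data known. Named with values are the immunoproteasome subunits and their constitutive counterparts, in each role the 2 members with the highest and the 2 with the lowest mean log2 ratio, members outside the call of most of their group, and the 8 members with the largest isoform differences. Of other lists, counts and the 2 genes with the highest and the 2 with the lowest ratio are given. 1 further list is not reported here. Pomp, Nfe2l2 and the members named beyond this were chosen after their values had been seen.

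Alternatives were other scalings (edgeR 4.0.16 for TMM), class limits, barcode subsets, folds, filters and isoform thresholds. Scrublet (scanpy 1.11.5) called 8 of 330 and 3 of 2420 barcodes doublets, which were kept except in an alternative, and a deep barcode may hold 2 cells.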

Additional observations from a re-analysis of the deposited data

How the results depend on the processing

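The main count of members called higher was 35 of 46. It became 22 of 42 with deep barcodes without the 3 cell-cycle genes and 22 of 30 with a level of at least 50 CPM, and lay between 28 and 41 under all other alternatives run. The count called lower was 0 and became 2 (Psma3 and Psmd11) with the median of all genes set to 1, with the lower fold tried and with exact intervals that exclude 1, and 1 in the 10% library alone (Psma3) and in long reads (Psmd11). The mean ratio of the summed 20S and 19S subunits over both libraries was 2.29, against 2.0 with the median set to 1, 1.96 with deep barcodes without cell-cycle genes and 1.82 in long reads. That of the immunoproteasome subunits was 4.23, against 3.12 with cell-cycle barcodes kept in the shallow class. The 5 members with an isoform difference of 20 points became 18 at 10 points, 1 at 30 points (Psma3) and 1 of 25 with reference-named isoforms alone (Psmd4). Apart from the settings given in the Results, the shares over all genes do not stand beside the counts of this section. These counts therefore show how the calls changed and are not read against a background. No member called higher became called lower under an alternative, and neither sum changed direction. Of the 32 named members, none that was called had a ratio on the other side of 1 in the alternatives run for them. The ratios of the other members were not checked for this. The cause of each difference was not tested, beyond the fewer genes tested in the stricter filters and the 9 and 35 deep barcodes without cell-cycle UMIs. Among the 32 named members, ratios with deep barcodes without cell-cycle UMIs moved beyond their interval in 9: the called Psma1 (1.08), Psmb6 (1.56), Psmc3ip (1.91), Psmc4 (1.73) and Psmd14 (1.33), and the uncalled Psmd4, Psmd12 (0.90), Psme3 (0.93) and Psmd9 (0.46), of which these last 3 went to the other side of 1, and in long reads in 6, including Psma3. Leaving out the shared barcodes gives values for the 90% library alone, since every class barcode of the 10% library is shared. An alternative added after the data had been seen, which keeps each shared barcode in the library where it has more UMIs, gave 36 of 46 members higher. No paired analysis was possible because the labels give no replicate numbers and each library is 1 sample of the same capture. Depth limits Psmb9, Psmb10 and some chaperones, with 5 to 19 UMIs in shallow barcodes of the 10% library.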
